A study of Mus musculus with 2 samples.

Results

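Enzymes that write, erase or read chemical marks on histones and DNA were examined through the open chromatin at their own genes. The group held 58 genes, named by gene symbol, and was split into 5 classes: 14 histone methyltransferases, 11 Polycomb genes, 11 histone demethylases, 16 acetylation genes (deacetylases, acetyltransferases and 2 acetyl-lysine readers) and 6 DNA methylation genes. A peak belonged to a gene when its deposited symbol equalled that of the gene, and a gene with no such peak counted as 0. Of the 58 genes, 53 had a peak, and together they held 102 of the 26232 distinct peaks.

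The peaks came from ATAC-seq, in which a transposase inserts sequencing adapters where DNA is accessible, in cardiac progenitor cells (CPCs) derived from mouse embryonic stem cells. There was 1 group, with 2 replicates from independent differentiations of the line E14 Tg(Nkx2-5-EmGFP), taken at day 5 at 100000 cells per library. The study's methods describe directed differentiation, with BMP4 and Activin A followed by growth factors, and a hanging-drop protocol. They do not name the protocol used for ATAC-seq. The strain is labelled C57BL/6 and no further treatment was given. The methods describe a sort of GFP-positive cells at this stage for RNA and at the end of the hanging-drop protocol. No sort is named for ATAC-seq, so whether other cell types of the culture contributed peaks is not known. All 6 cardiac progenitor markers had a peak (Nkx2-5 3, Isl1 8, Tbx5 5, Gata4 3, Mef2c 4 and Myocd 1), while among 3 pluripotency markers Pou5f1 had none and Nanog and Zfp42 had 2 each.

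The deposited list gives position, distance and symbol of peaks found in both replicates, with no signal, no score and no value per replicate. The depth behind it was unknown, and neither a replicate error nor a test between gene classes was possible. A gene without a peak in this list is therefore not a gene measured as closed.

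Histone methyltransferases and acetyltransferases add methyl or acetyl groups to lysines of histone tails, and demethylases and deacetylases remove them. Polycomb proteins form a complex that methylates histone H3 and a complex that ubiquitinates histone H2A, and both keep developmental genes silent. DNA methyltransferases methylate cytosine in CpG dinucleotides, and Tet enzymes oxidise the methyl group on the way to its removal. Most such enzymes are made in many cell types, and several are needed for normal heart development.

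Sequences at the centres of peaks from genes with the most peaks in their class are shown as examples of the 2 kinds of peak described throughout. These are peaks at a transcription start site (TSS) and peaks far from it. Not every class is shown, and the windows are no sample of all peaks. The following 3 lie in peaks within 1 kb of a TSS, are written 5′ to 3′ on the strand of the gene (NCBIM37, the assembly of mm9), overlap no annotated exon, and have each CpG in capitals.
Jarid2, chr13:44825726-44825846, + strand: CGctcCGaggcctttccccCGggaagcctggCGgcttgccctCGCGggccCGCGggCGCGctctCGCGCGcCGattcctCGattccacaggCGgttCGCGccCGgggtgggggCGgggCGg
Kat6b, chr14:22319408-22319528, + strand: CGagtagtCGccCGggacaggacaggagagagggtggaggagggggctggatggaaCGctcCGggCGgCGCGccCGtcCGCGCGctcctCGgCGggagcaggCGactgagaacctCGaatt
Dnmt3a, chr12:3807476-3807596, + strand: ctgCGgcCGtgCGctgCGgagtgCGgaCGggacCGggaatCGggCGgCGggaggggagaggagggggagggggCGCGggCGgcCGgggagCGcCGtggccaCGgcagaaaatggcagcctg
These windows of 121 bases held 21, 16 and 17 CpG dinucleotides, respectively. Windows at the centres of TSS peaks of Kmt2a and Kdm2b, not shown, held 11 and 18. The following 4 lie at the centres of peaks beyond 10 kb of the TSS, with capitals on either strand for the letters AGATAA of GATA factors, TAATTA of homeodomain proteins, TGACTCA of AP-1 or GGAATG of TEAD proteins.
Jarid2, chr13:44800875-44800995, + strand: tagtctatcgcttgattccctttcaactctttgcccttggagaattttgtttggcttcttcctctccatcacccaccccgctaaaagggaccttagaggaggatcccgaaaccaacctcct
Kat6b, chr14:22406118-22406238, + strand: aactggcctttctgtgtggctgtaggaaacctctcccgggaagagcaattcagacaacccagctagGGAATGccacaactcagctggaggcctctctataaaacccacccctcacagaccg
Dnmt3a, chr12:3780611-3780731, + strand: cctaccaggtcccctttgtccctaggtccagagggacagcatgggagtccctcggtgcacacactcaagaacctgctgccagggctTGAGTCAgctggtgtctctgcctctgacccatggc
Kdm6b, chr11:69250917-69251037, - strand: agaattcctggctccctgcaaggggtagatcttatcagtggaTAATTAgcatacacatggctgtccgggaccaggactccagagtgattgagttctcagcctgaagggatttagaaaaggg
The distal windows held 3, 2, 1 and 1 CpG dinucleotides. The Jarid2 window carried none of the letters searched, the Kat6b window carried the TEAD letters, the Dnmt3a window the AP-1 letters and the Kdm6b window the homeodomain letters. A window from a Dot1l peak beyond 10 kb, not shown, held 1 CpG and carried none of the letters.

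A peak was assigned to 91.4% of the 58 genes (95% Wilson interval 81.4 to 96.3%), where 62.5% of 21900 protein coding genes had one. In the list of 74 related genes described below the share was 74.3%. The 58 genes were chosen with earlier results of these data known, and the part of that choice in their share was not tested. Of the 53 genes with a peak, 28 had 1 peak (52.8%, against 61.0% of all coding genes with a peak), and in 25 of these it lay within 1 kb of a TSS. A further 13 genes had 2 peaks (24.5%, against 22.5%), 5 had 3 (9.43%, against 8.89%) and 7 had 4 or more (13.2%, against 7.65%). The shares with 2 and with 3 peaks were thus near those of all coding genes. The 7 were Dnmt3a with 6, Dot1l, Jarid2 and Kdm6b with 5 each, and Hdac11, Kat6b and Tet1 with 4 each. Among all protein coding genes, those without a peak included, 4.79% had 4 or more peaks. The mean was 1.76 peaks per gene (SD 1.35 over genes) with a median of 1.00, and 1.92 over the genes with a peak, where all coding genes with a peak had a mean of 1.71 and a median of 1.00. The SD describes the spread over genes and not an error over replicates.

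**Figure D1:**
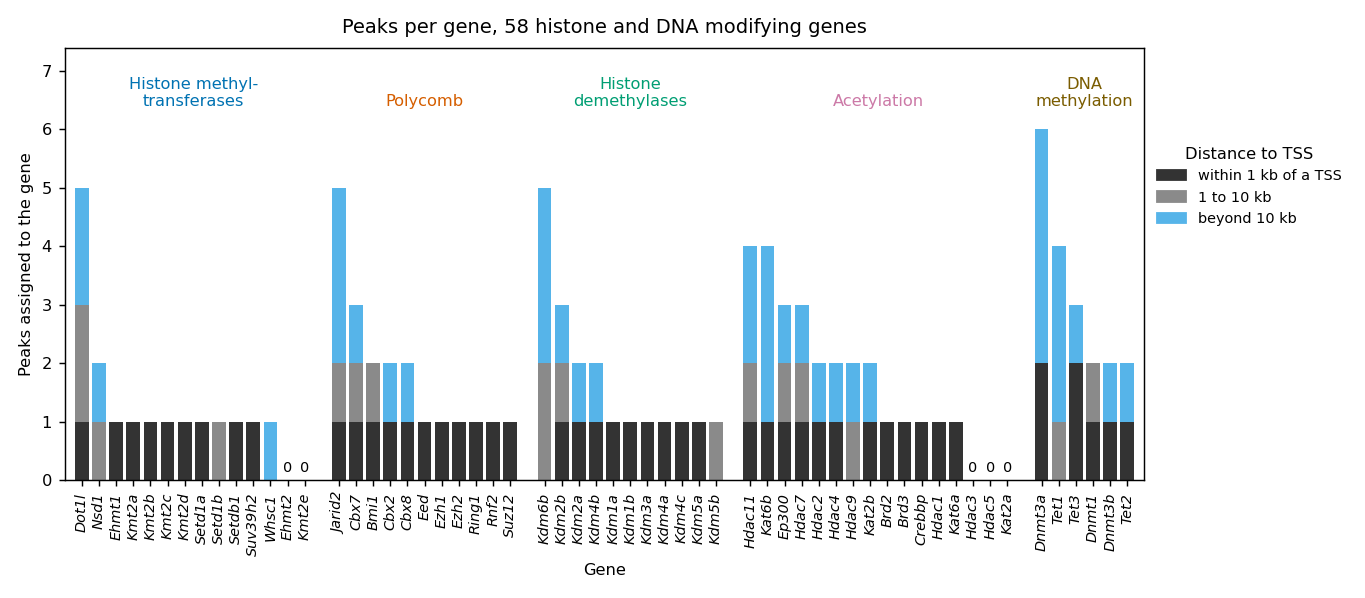
Number of peaks assigned to each of the 58 genes (bars, one per gene, grouped by class), stacked by the deposited distance to a TSS (dark, within 1 kb; grey, 1 to 10 kb; blue, beyond 10 kb). Most genes show 1 dark unit, 5 genes show 0, and Dnmt3a reaches 6.

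The median number of peaks was 1.00 in the methyltransferases, Polycomb genes and demethylases, 1.50 in the acetylation genes and 2.50 in the DNA methylation genes. The means were 1.21 (SD 1.19, range 0 to 5), 1.82 (SD 1.25, range 1 to 5), 1.73 (SD 1.27, range 1 to 5), 1.69 (SD 1.30, range 0 to 4) and 3.17 (SD 1.60, range 2 to 6), respectively. All 6 DNA methylation genes had 2 or more peaks, as did 2 of 14 methyltransferases, 5 of 11 Polycomb genes, 4 of 11 demethylases and 8 of 16 acetylation genes. Of all protein coding genes 24.4% had 2 or more peaks, and of those with a peak 39.0%. The ranges of the classes overlapped. Without Dnmt3a the mean of the other 5 DNA methylation genes was 2.60. The classes also differed in gene length, with a median of 80.0 kb for the DNA methylation genes against 39.9 kb for the methyltransferases, 31.4 kb for Polycomb, 72.7 kb for the demethylases and 57.0 kb for the acetylation genes, and its part in the difference between classes was not tested. The median length was 48.8 kb over the 58 genes and 15.4 kb over all coding genes, and over the 58 genes, which share 1 list, length and number of peaks had a Spearman rho of 0.29, given as a description across genes.

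Within 1 kb of a TSS lay 48 of the 102 peaks (47.1%, interval 37.7 to 56.7%), 17 lay at 1 to 10 kb and 37 beyond 10 kb (36.3%, interval 27.6 to 45.9%). Over all peaks the shares were 44.9%, 13.8% and 41.4%. By class, the share within 1 kb was 9 of 17 in methyltransferases, 11 of 20 in Polycomb genes, 9 of 19 in demethylases, 12 of 27 in acetylation genes and 7 of 19 in DNA methylation genes. Beyond 10 kb lay 4, 6, 6, 11 and 10 peaks, or 23.5%, 30.0%, 31.6%, 40.7% and 52.6% of each class. The interval for the DNA methylation genes (31.7 to 72.7%) overlapped that of the methyltransferases (9.56 to 47.3%). A peak beyond 10 kb was held by 3 of 14 methyltransferases, 4 of 11 Polycomb genes, 4 of 11 demethylases, 8 of 16 acetylation genes and 5 of 6 DNA methylation genes. The share of all coding genes with such a peak was not computed, so these counts of genes cannot be read against a background. All 6 peaks beyond 10 kb of the Polycomb genes were upstream by the deposited distance, and the other classes had such peaks on both sides. Of the 54 peaks beyond 1 kb, 25 lay upstream (46.3%, where all such peaks had 44.2%), 30 lay inside the gene they were assigned to, and their median distance was 16748 bp, against 25163 bp over all peaks beyond 1 kb. By annotation, 32 were intronic (59.3%, against 41.5% of all such peaks) and 18 intergenic (33.3%, against 50.0%).

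**Figure D2:**
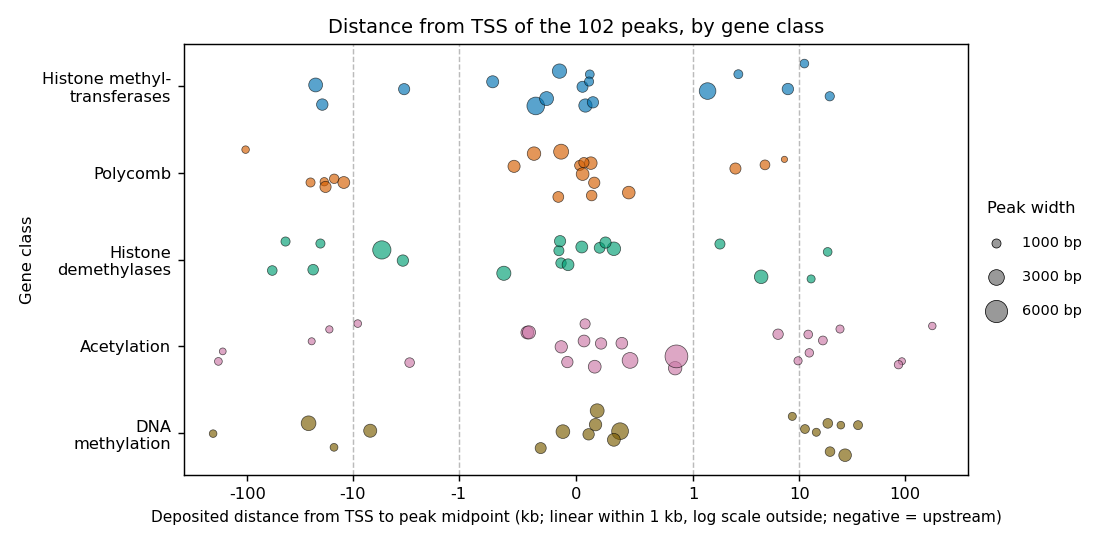
Deposited distance from the TSS to the midpoint of each of the 102 peaks (horizontal axis in kb, linear within 1 kb and logarithmic outside; negative is upstream), with 1 row per gene class and the circle area proportional to peak width. Every class has a column of peaks at the TSS, and peaks beyond 10 kb lie on both sides in every class but Polycomb, whose 6 are all upstream.

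Peaks at the TSS of modifier genes had a median width of 1802 bp (interval 1589 to 2022 bp, n = 48), where all 11772 peaks within 1 kb of a TSS had a median of 1326 bp (quartiles 1072 and 1691 bp). A width of at least 2000 bp was found in 19 of the 48 (39.6%) and in 13.4% of all such peaks. The 48 peaks were also richer in CpG than all such peaks, as given below, and its part in their width was not tested. The class medians at the TSS were 1788 bp for methyltransferases, 1817 bp for Polycomb genes, 1558 bp for demethylases, 1943 bp for acetylation genes and 2045 bp for DNA methylation genes, with intervals that overlapped (the lowest bound was 1038 bp and the highest 3467 bp). Beyond 1 kb the median was 1008 bp (interval 887 to 1155 bp, n = 54), against 911 bp over all such peaks. Here the class medians were 1576 bp for methyltransferases (n = 8), 1112 bp for Polycomb genes (n = 9), 1210 bp for demethylases (n = 10), 814 bp for acetylation genes (n = 15) and 983 bp for DNA methylation genes (n = 12). The widths of the acetylation genes beyond 1 kb ranged from 574 to 1335 bp. Their interval (660 to 932 bp) lay below that of the demethylases (944 to 2276 bp), a difference that could not be tested over replicates. Of the 10 demethylase peaks, 5 belonged to Kdm6b alone, and the intervals treat peaks as independent. For peaks beyond 10 kb the intervals overlapped, at 618 to 932 bp for acetylation genes and 806 to 1392 bp for demethylases.

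**Figure D3:**
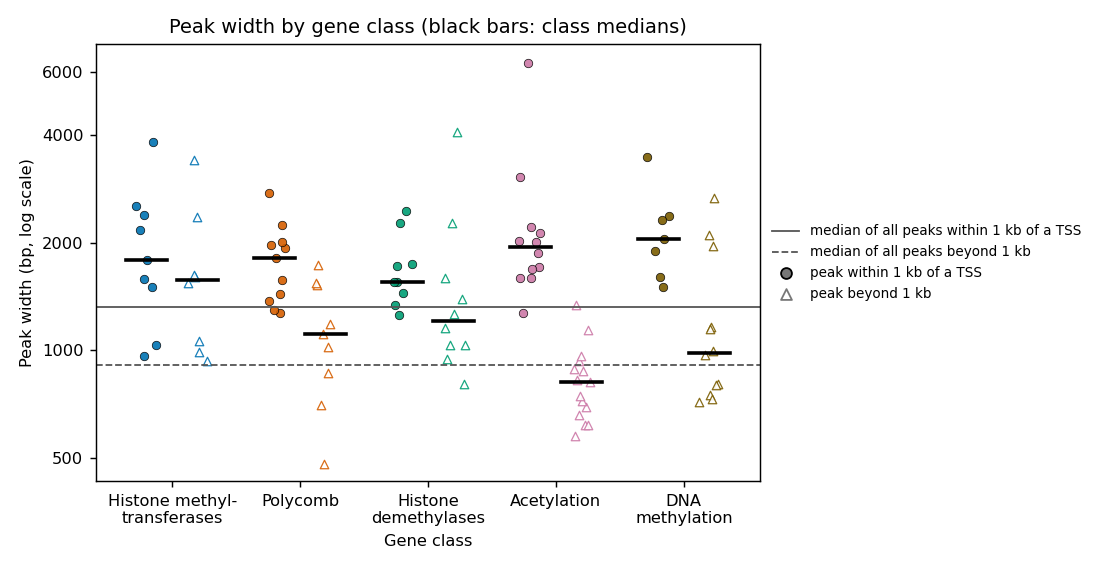
Width of each peak (vertical axis in bp, log scale) by gene class, with filled circles for peaks within 1 kb of a TSS, open triangles for peaks beyond 1 kb, black bars for the class medians and horizontal lines for the medians of all peaks (solid, 1326 bp within 1 kb; dashed, 911 bp beyond). The black bars of the TSS peaks stand above the solid line in all 5 classes, and the bar of the distal acetylation peaks (814 bp) stands below the dashed line.

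Base composition differed between the peaks at the TSS and the distal ones. Peaks within 1 kb had a median GC content of 63.4%, and their median CpG ratio (observed CpG over that expected from the bases) was 0.80, and 42 of 48 (87.5%) reached both a ratio of 0.6 and a GC content of 50%. Among all peaks within 1 kb, the medians were 58.6% and 0.68, and 67.9% reached both. Peaks beyond 1 kb had medians of 52.5% and 0.22, and 6 of 54 (11.1%) reached both, against 7.42% of all such peaks. The 6 belonged to Nsd1 (1360 bp downstream), Whsc1 (22.5 kb upstream), Jarid2 (2496 bp downstream), Kdm5b (3369 bp upstream), Hdac9 (9765 bp downstream) and Tet1 (6864 bp upstream). Those of Nsd1 and Whsc1 overlapped an annotated coding TSS of the gene, and the other 4 did not. The 6 TSS peaks that missed a bound were those of Cbx7, Kdm4a, Hdac11 and Dnmt1, one of the 2 TSS peaks of Dnmt3a and one of the 2 of Tet3, with CpG ratios of 0.45 to 0.59.

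**Figure D4:**
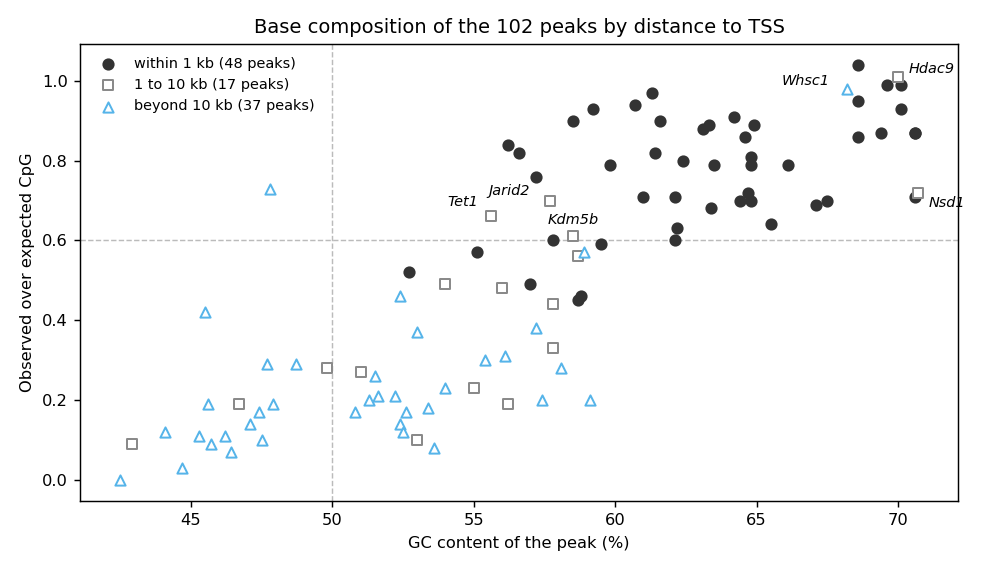
GC content (horizontal axis, %) and observed over expected CpG ratio (vertical axis) of each of the 102 peaks, by distance to a TSS (filled circles, within 1 kb; squares, 1 to 10 kb; triangles, beyond 10 kb); dashed lines mark 50% and 0.6. The TSS peaks lie at the upper right, and the 6 named peaks are the ones beyond 1 kb that reach both lines.

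At promoters, here the 5′-most coding TSS with 500 bp on either side, a peak was found at 45 of 58 modifier genes, where 53.5% of 22359 protein coding genes had one. The modifier genes were mostly of the CpG-rich promoter type (42 of 58, where 44.6% of all coding genes were). Within that type a promoter peak was found at 39 of 42 modifier genes and at 89.4% of all such genes, so the members' share was close to this background. Of the 16 genes with a CpG-poor promoter, 6 had a promoter peak, where 24.7% of all such genes did. With every coding TSS counted, a peak was found at 51 of 58 (56.2% of all coding genes), at 40 of 42 with a CpG-rich promoter (90.0% of all such genes) and at 11 of 16 with a CpG-poor one (28.9% of all such genes). The 6 genes gained in this way were Setd1b, Cbx7, Kdm2b, Kdm4c, Hdac7 and Brd3. Setd1b had no peak of its own at a coding TSS, and a peak assigned to Hpd lay in its body. The promoter type was set at the 5′-most TSS alone. The TSS peaks at inner starts of Kdm2b, Kdm4c, Hdac7 and Brd3 had CpG ratios of 0.87, 0.79, 0.70 and 0.91. That of Cbx7 had 0.57. The part of these inner starts, and of the number of coding TSSs per gene, in the counts was not tested.

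Histone methyltransferases mostly held a single TSS peak. The H3K4 methyltransferase family (Kmt2a to Kmt2e, Setd1a and Setd1b) had 6 peaks for 7 genes. Kmt2a, Kmt2b, Kmt2c, Kmt2d and Setd1a each had 1 peak within 1 kb, with widths of 3836, 2390, 2536, 1788 and 2169 bp. The Kmt2a peak, at chr9:44687783-44691618 (mm9), was the third widest of the 102, and 90 of all peaks were at least as wide. Setd1b had 1 intronic peak of 1607 bp, 7824 bp downstream of its TSS. One more peak in the gene, of 1035 bp, was assigned to Hpd and was not counted. Of the H3K9 methyltransferases, Ehmt1, Suv39h2 and Setdb1 had 1 TSS peak each, of 1507, 1581 and 965 bp, and Ehmt2 had none.

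For the H3K36 methyltransferases, the deposited distances placed no peak within 1 kb. Nsd1 had a peak of 3402 bp with its midpoint 1360 bp downstream and one of 1623 bp 19.5 kb upstream, and the first overlapped an annotated TSS. Whsc1 had 1 peak of 2366 bp, listed 22.5 kb upstream, whose midpoint lay 156 bp from an annotated coding TSS. The distance of this peak therefore depended on which TSS was used. Dot1l, the H3K79 methyltransferase, had the most peaks in the class, at 3278 bp upstream and 111, 2659, 11213 and 19485 bp downstream, with widths of 1544, 1038, 988, 932 and 1061 bp. Its widest peak was not the one at the TSS.

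All 11 Polycomb genes had a peak within 1 kb of a TSS. In PRC2, the complex that methylates H3K27, the catalytic subunits Ezh1 and Ezh2 and the core subunits Eed and Suz12 had that peak alone, with widths of 1268, 1934, 1570 and 1442 bp. Jarid2, which helps recruit PRC2 and is named for its jumonji domain, had 5 peaks. Its TSS peak was 2237 bp wide, a peak of 1528 bp lay 2496 bp downstream, and 3 intergenic peaks of 863, 1020 and 702 bp lay 18.7, 25.2 and 104 kb upstream. The distance of the peak of 1528 bp was measured from another start than that of the TSS peak. From the 5′-most annotated coding TSS it lay 4.23 kb downstream, and its midpoint lay 273 bp from an annotated TSS that is not a coding one. No peak was assigned to Jarid2 farther downstream, in a gene that spans 192.2 kb. In PRC1, the complex that ubiquitinates H2A, the ligase genes Ring1 and Rnf2 had 1 TSS peak each (1376 and 1294 bp), and Bmi1 had one of 2007 bp and one of 480 bp, the narrowest of the 102, at a coding exon. The chromobox genes Cbx2, Cbx7 and Cbx8, whose proteins bind methylated H3K27, had 2, 3 and 2 peaks. Their TSS peaks measured 1974, 2751 and 1817 bp, and that of Cbx7 stood at an inner TSS 38.3 kb from the 5′-most one, which had no peak.

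All 11 histone demethylase genes had a peak, and 7 of them had 1 only. The flavin-dependent enzymes Kdm1a and Kdm1b each had 1 TSS peak, of 1446 and 2269 bp. Of the jumonji enzymes, Kdm3a, Kdm4a, Kdm4c and Kdm5a had a TSS peak alone, of 1340, 1747, 1556 and 1726 bp. Kdm2a and Kdm4b had a TSS peak (2455 and 1558 bp) and 1 peak beyond 10 kb. Kdm2b had 3 peaks, and its TSS peak of 1258 bp lay at an inner start 112 kb from the 5′-most one. Kdm5b had no TSS peak but one of 1598 bp 3369 bp upstream.

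Kdm6b, which removes methyl groups from H3K27 and so opposes PRC2, had the most peaks and the widest peak of its class and none at its annotated TSS. Its 5 peaks lay 4372 bp downstream and 5329, 23800, 43450 and 58026 bp upstream, with widths of 2276, 4090, 1392, 1032 and 1155 bp. The peak of 4090 bp, at chr11:69230462-69234551, was the second widest of the 102, and 64 of all peaks were at least as wide. The 3 farthest lay in introns of other genes, so their assignment to Kdm6b rests on the nearest TSS alone. The annotation used here gives Kdm6b a single coding TSS.

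Acetylation genes held the widest peak and 3 of the 4 farthest. Among the class I deacetylases, Hdac1 had 1 TSS peak of 1589 bp, Hdac2 had a TSS peak of 1716 bp and a peak of 574 bp 171 kb upstream, and Hdac3 had none. Of the class IIa deacetylases, Hdac4 had a peak of 1589 bp listed 74 bp upstream of its TSS and an intronic peak of 618 bp listed 93.9 kb downstream. In the annotation used here these lay 32023 bp upstream and 61971 bp downstream of the nearest TSS of Hdac4, and the first overlapped none. Hdac7 had a TSS peak of 1688 bp and peaks listed 6321 and 12193 bp downstream. The last distance was measured from another start. From the 5′-most annotated coding TSS these peaks lay 13.1, 19.1 and 41.8 kb downstream, respectively. Hdac9 had no TSS peak by the deposited distance, with 1 intronic peak of 694 bp 182 kb downstream and 1 of 826 bp listed 9765 bp downstream, which lay 378 kb upstream of the nearest TSS of the gene in the annotation used here. The 2 distances of Hdac9 were thus measured from different starts. Hdac11 had 4 peaks, at 77 bp (1273 bp wide), 2909 bp upstream (1137 bp), 16.7 kb upstream (660 bp) and 16.8 kb downstream (964 bp).

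Among the acetyltransferases, Crebbp and Kat6a had 1 TSS peak each, of 2130 and 2022 bp. Ep300, the paralogue of Crebbp, had a TSS peak of 2014 bp and 2 upstream peaks of 723 and 619 bp at 9012 and 24574 bp. Kat2b had a TSS peak of 2214 bp and an intronic peak of 887 bp listed 12.5 kb downstream. The latter distance was measured from another start, and the intronic peak lay 29.6 kb from the 5′-most annotated coding TSS. Kat6b had a TSS peak of 3053 bp and 3 distal peaks of 745, 814 and 877 bp, at 188 kb upstream and 24.4 and 87.2 kb downstream, while its paralogue Kat6a had none beyond the TSS. The acetyl-lysine readers Brd2 and Brd3 had 1 TSS peak each. That of Brd2, at chr17:34254650-34261026, measured 6377 bp, the widest of the 102, and 5 of all 26232 peaks, itself included, were at least as wide. Brd3 had 1872 bp at an inner TSS 31.9 kb from the 5′-most one.

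Each of the 6 DNA methylation genes had 2 to 6 peaks. Dnmt1, the maintenance methyltransferase, had a TSS peak of 2378 bp and an intronic peak of 806 bp 8619 bp downstream. Dnmt3b, a de novo methyltransferase, had a TSS peak of 2045 bp and an intronic peak of 971 bp 11358 bp downstream. Dnmt3a, the other de novo enzyme, had 6 peaks. One of 3467 bp, at chr12:3805803-3809269, lay 375 bp from a TSS, and one of 1892 bp lay 166 bp from an inner TSS, 85.4 kb inside the gene. The other 4 lay 26309 and 15111 bp upstream and 18677 and 27227 bp downstream, with widths of 2670, 751, 1162 and 1957 bp. One more peak in the gene, of 1462 bp, was assigned to the antisense gene Dnmt3aos and was not counted.

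The Tet genes had 9 peaks. Tet1 had none within 1 kb of a TSS by the deposited distance. Its 4 peaks were listed 6864 bp upstream (2099 bp wide) and 14546, 24810 and 36095 bp downstream (800, 729 and 995 bp). The midpoint of the peak of 800 bp lay 164 bp from an annotated TSS of Tet1 that is not a coding one. All 4 lay inside the gene of the annotation used here, in which the 5′-most coding TSS is farther upstream. Tet2 had a TSS peak of 1505 bp and an intergenic peak of 718 bp 211 kb upstream, the farthest of the 102. Tet3 had 2 TSS peaks, of 1599 and 2313 bp, and an intronic peak of 1147 bp 19.6 kb downstream. The wider of these TSS peaks, 112 bp from a deposited TSS, lay 14.8 kb upstream of the nearest annotated one.

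**Figure D5:**
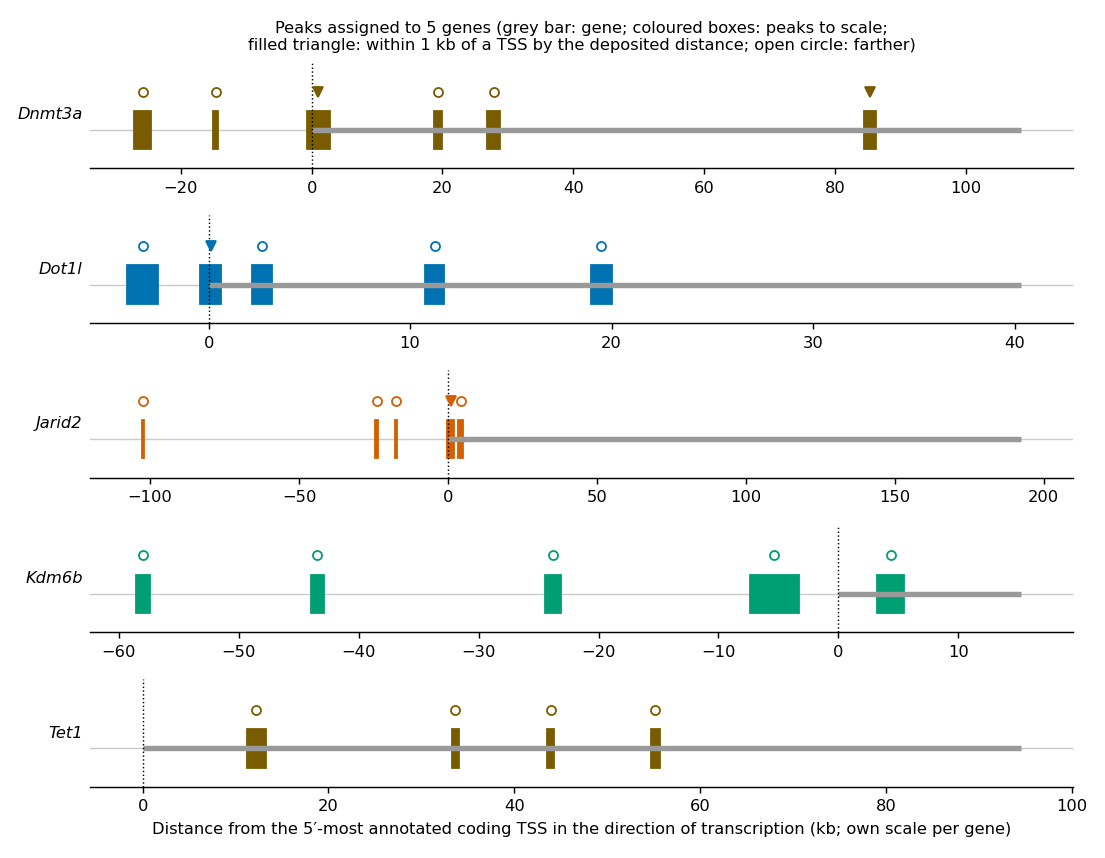
Maps of the peaks assigned to Dnmt3a, Dot1l, Jarid2, Kdm6b and Tet1, with distance from the 5′-most annotated coding TSS on the horizontal axis (kb, own scale per gene), the gene as a grey bar and peaks as boxes to scale, marked by a filled triangle within 1 kb of a TSS by the deposited distance and by an open circle otherwise. Dnmt3a has 2 filled triangles, the farther one 85.4 kb inside the gene, Jarid2 has its distal peaks upstream, and Kdm6b and Tet1 have no filled triangle.

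The 5 genes without a peak of their own were Kmt2e and Ehmt2 among the methyltransferases and Hdac3, Hdac5 and Kat2a among the acetylation genes. At 3 of them the promoter was nonetheless overlapped by a peak that carried the symbol of a neighbour. The promoter of Kmt2e lay under a peak of 3478 bp assigned to 5031425E22Rik, that of Hdac3 under one of 2550 bp assigned to Rell2 and that of Hdac5 under one of 1480 bp assigned to Mir8101. The nearest peak to Ehmt2 was 3779 bp upstream, assigned to Zbtb12, and the nearest to Kat2a was 1749 bp upstream, assigned to Hspb9. For Kmt2e, Hdac3 and Hdac5 the zero in this count is therefore a statement about the nearest gene. Ehmt2 and Kat2a had no listed peak of any symbol at a coding TSS or in the gene, which does not measure them as closed. In all, 8 of the 58 genes held 9 peaks in their bodies with the symbol of another gene. When peaks were counted by position in the gene or within 10 kb of it, all 58 genes had a peak, where 71.0% of all coding genes did. The mean was then 2.16 peaks per gene (1.32 over all coding genes), with 2.00 for methyltransferases, 1.91 for Polycomb genes, 2.09 for demethylases, 2.19 for acetylation genes and 3.00 for DNA methylation genes. The methyltransferases, lowest by symbol, were not lowest by position. A count by position searches more sequence in a longer gene. The median gene length was 48.8 kb over the 58 genes and 15.4 kb over all coding genes, and its part in these counts was not tested.

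Short motif letters were counted in the central 300 bp of each peak on both strands. Besides those given below, the letters CACGTG (E-box), CCAATC (NF-Y) and GCGCATGCG (NRF1) were counted. The values below are thus part of a larger set of comparisons, none of which was tested. At the TSS, GGGCGG (SP/KLF) was found in 42 of 48 peaks (87.5%, against 66.5% of all peaks within 1 kb), and CCGGAA (ETS) in 6 (12.5%, against 24.1%). The modifier peaks also had the higher GC content given above, and its part in these counts was not tested. Beyond 1 kb, the AP-1 letters TGACTCA were found in 8 of 54 peaks (14.8%, against 7.66%), the GATA letters AGATAA in 8 (14.8%, against 14.6%), the TEAD letters GGAATG in 12 (22.2%, against 22.4%) and the homeodomain letters TAATTA in 4 (7.41%, against 4.66%). The peaks with GATA letters belonged to Cbx7, Kdm2a, Kdm6b, Hdac2, Hdac9, Kat2b, Tet1 and Tet3, and those with AP-1 letters to Jarid2, Bmi1, Cbx7, Kdm6b, Hdac9, Hdac11, Dnmt3a and Tet2. A match of letters is a description and not a binding site.

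A second list of 74 related genes served as a comparison. Of these, 55 had a peak (74.3%), with 98 peaks and a mean of 1.32 per gene. By class, 12 of 19 methyltransferases, 18 of 20 Polycomb genes, 8 of 11 demethylases, 12 of 16 acetylation genes and 5 of 8 DNA methylation genes had a peak, with means of 1.11, 2.20, 1.09, 0.81 and 1.00. The 8 DNA methylation genes of this list, with 0 to 3 peaks each, included Dnmt3l (0), Uhrf1 (1) and Tdg (0). Its Polycomb genes included Rybp, a PRC1 subunit gene, with 10 peaks, of which 9 lay beyond 10 kb. The order of the classes by mean was therefore not the same in both lists.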

How the data were processed

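ATAC-seq was measured in 2 replicates of 1 group, day 5 CPCs, so no comparison between conditions and no pairing of samples existed. The authors mapped reads to mm9 with Bowtie2, filtered them with SAMtools, removed duplicates with Picard 1.136, called peaks per replicate with MACS14, removed blacklisted regions and kept peaks that overlapped by at least 1 bp in both replicates with bedtools 2.15. A shift of the reads was set at peak calling and the methods describe no separate step for the Tn5 cut. The nearest TSS comes from HOMER, a step described for ChIP-Seq peaks.

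The deposited values are positions in bp, signed distances in bp between TSS and peak midpoint, accessions and symbols, and no signal or p-value. Because intervals keep the coordinates of 1 replicate and a caller sets their width, width also depends on depth, which is unknown. Some lines of the list may not be analysed here.

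The 26429 lines gave 26232 distinct intervals, printed 1-based. Gene models were GENCODE vM1 on NCBIM37, in which all 58 genes were matched, 7 under an older name, and the RefSeq gene table (GRCm38.p6) was used for names and for the 21900 coding genes. For 67 of the 102 peaks the deposited distance equalled that to an annotated TSS of the gene within 1 bp. CpG-rich promoters were those with 50% GC or more and with observed CpG at 0.6 or more of that expected. Shares have 95% Wilson intervals and medians 95% binomial order-statistic intervals, which cover counting over peaks or genes only. Python 3.11.15, pandas 2.3.3, numpy 2.4.6, scipy 1.17.1, pysam 0.24.0, intervaltree 3.1.0 and samtools 1.23.1 were used, and the scripts were tested on simulated data.

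The members, classes and lists were chosen with earlier results of these data known. Every member was to be accounted for, with full values for members without a peak or without a TSS peak, for the gene with the most and with the widest peaks in each class, for the 5 members with the most peaks, the 5 widest and the 3 farthest peaks, for the DNA methylation genes and for members whose promoter peak carried another symbol. Alternatives were every line counted, 2 width limits, annotated distances, assignment by position, other promoter windows, other averages and other class borders.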

Additional observations from a re-analysis of the deposited data

How the results depend on the processing

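No paired analysis was possible because the samples form 1 group, and no replicate could be left out because both replicates share 1 list. Over 11 alternative settings, 104 of 119 recomputed values stayed within 1.5 times the reported count or mean, or within the interval of the reported share or median. The 15 others follow. With peaks wider than the median of all peaks alone, 66.7% of the member peaks lay within 1 kb and 15.9% beyond 10 kb, and the median width became 1726 bp. Peaks beyond 10 kb then numbered 2 for methyltransferases, 3 for Polycomb genes, 2 for demethylases, 0 for acetylation genes and 4 for DNA methylation genes. The mean per gene fell to 0.88 for acetylation genes and 2.00 for DNA methylation genes, and the median width of peaks beyond 1 kb became 1236 bp for acetylation genes. For DNA methylation genes that median became 1957 bp, at the upper bound of its interval, and it counts among the 104. This limit removes narrow peaks by construction, and distal peaks were the narrower kind. With distances to the nearest annotated TSS of the assigned gene, methyltransferases had 2 peaks beyond 10 kb. Counted by position in the gene or within 10 kb of it, they had 2.00 peaks per gene. The median number of peaks was 1.00 for Polycomb genes and for demethylases, below their means. The settings for the list of related genes were chosen after seeing the data and left its count of genes with a peak at 48 to 55. Depth, which is unknown, limits which narrow or weak regions can be called.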
